A study of Mus musculus with 10 samples.

Results

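Livers of floxed male mice that received Cre were compared with livers of floxed male mice that received an empty vector, so that both groups carried the same alleles and differed in the virus they were given. H3.3 KO livers (n = 4) came from H3f3afl/fl H3f3bfl/fl mice injected with AAV8-Tbg-Cre, and MCS livers (n = 3) came from H3f3afl/fl H3f3bfl/fl mice injected with AAV8-Tbg-MCS, a vector that carries no Cre. Virus was given retro-orbitally at 6 months of age, and liver was collected 3 weeks later. These 7 livers were chosen by their titles from the 10 libraries of the experiment. The other 3 came from wild-type mice that received AAV8-Tbg-Cre (WT Cre livers), and they shared the fit and served to show where a value hangs on the kind of control. A gene was tested if its counts over the 10 libraries came to 10 or more, which held for 22449 of 33924 genes with any count.

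The Tbg promoter directs expression to hepatocytes, so Cre removes the floxed genes in hepatocytes that take up the virus and leaves the other liver cells their H3.3 genes. RNA came from whole liver, in which a hepatocyte that escaped the virus cannot be told from a non-hepatocyte. Cre expression and loss of H3.3 went together in this comparison and cannot be told apart by it. For the floxed animals the labels give HIRA fl/fl as the genotype, while the titles name H3f3a and H3f3b, and the groups follow the titles. Count columns of control livers carry only a number, which was matched to the library number of each sample, so the split of the controls into MCS and WT Cre livers rests on that match.

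H3.3 is a variant of histone H3 that is made throughout the cell cycle, unlike the canonical H3 proteins, which are supplied mainly in S phase. It is encoded by H3f3a and H3f3b, which specify the same protein, and it replaces other H3 in nucleosomes of transcribed genes, enhancers and heterochromatin. The HIRA complex deposits it at active genes and the ATRX-DAXX complex at heterochromatin. Hepatocytes of the adult liver divide rarely and secrete most plasma proteins.

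Library totals ran from 14998426 counts in KO 1 to 26096141 in MCS 1, and KO 1 was the shallowest of the 10. Levels are given as TMM-scaled counts per 1000000 counts of library (CPM), in the order MCS 1 to 3 and KO 1 to 4. Fold changes are log2 values of KO minus MCS, given with their standard error, and every adjusted p comes from the quasi-likelihood F test of edgeR with Benjamini-Hochberg adjustment over all 22449 genes. The spread behind these p-values is that between the sampled livers. In a principal component analysis of the 7 livers, the first component held 77.7% of the variance and set the MCS livers (-56.4 to -54.8) apart from KO 2 to KO 4 (50.8 to 52.9), while KO 1 lay between them at 10.3. The second component held 11.6% of the variance and set KO 1 (-46.8) apart from the other 6 livers (2.47 to 13.3). KO 1 therefore stands apart from its group, and results that turn on it are given with and without it. Albumin (Alb) was at 96284 to 118201 CPM in MCS livers and 61393 to 75941 CPM in KO livers, and liver markers were therefore abundant in both groups.

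Both targeted genes were lower in every KO liver. H3f3a (chromosome 1, 180800832-180813943, minus strand, mm10) was at 63.7, 63.4 and 61 CPM in MCS livers and at 16, 18.7, 16 and 19 CPM in KO livers. H3f3b was at 136, 153 and 204 CPM in MCS livers and at 39.8, 53.7, 51.8 and 56.7 CPM in KO livers. No KO liver overlapped the MCS livers in either gene, and the KO means of 17.4 ± 1.66 and 50.5 ± 7.4 CPM (SD, n = 4) show that transcripts of both remained. The log2 fold change was -1.84 ± 0.098, adjusted p = 3.1e-07 for H3f3a and -1.70 ± 0.16, adjusted p = 1.78e-05 for H3f3b. Counts over a whole gene include any exon that Cre does not remove, so they do not give the share of cells that lost the gene.

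**Figure D1:**
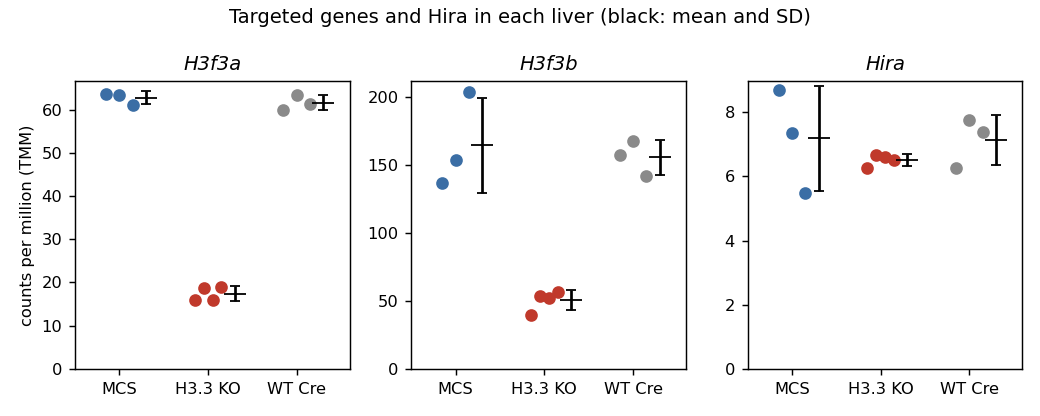
Level in CPM (y axis, from 0) of H3f3a, H3f3b and Hira in each liver, by group (x axis), with the mean and SD in black. Both H3.3 genes lie lower in all 4 KO livers than in any control liver, at 16 to 19 CPM for H3f3a, while Hira overlaps between groups.

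Hira, which encodes the chaperone that brings H3.3 to active genes, did not pass the test. It was at 8.71, 7.37 and 5.48 CPM in MCS livers and 6.26, 6.68, 6.62 and 6.5 CPM in KO livers, with a log2 fold change of -0.14 ± 0.17, adjusted p = 0.544, which was positive (0.0954) with scaling by library totals and without MCS 1 (0.0182), and the groups overlapped. Among the 15 H3.3 genes and deposition factors measured, 5 fell past the threshold, the targeted pair included, and 1 rose. The latter was Asf1b, the H3-H4 chaperone of proliferating cells, which went from 0.488, 0.625 and 0.224 CPM to 1.56, 2.14, 2.28 and 1.91 CPM (2.11 ± 0.32, adjusted p = 0.000449). All 4 KO livers lay above the 3 MCS livers for Asf1b, and 3 members rose without KO 1. With scaling by library totals, 3 fell and 3 rose. Over all genes tested, 17.3% rose and 14.8% fell by the adjusted p alone, and the median log2 fold change was 0.0062. Each list below is to be read against these shares.

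At an adjusted p under 0.05 with an absolute log2 fold change over 1, 3926 genes were differentially expressed between KO and MCS livers, which is 17.5% of those tested. Of these DEGs, 2682 were higher (11.9% of genes tested) and 1244 lower (5.54%) in KO livers, so 68.3% were higher. By the adjusted p alone 7192 genes (32.0%) passed, 3880 higher and 3312 lower, so 53.9% were higher. Among the DEGs, 581 had a log2 fold change over 3 against 151 under -3. The 4 KO livers lay wholly beyond the 3 MCS livers in 7960 genes (35.5%), 3970 higher (17.7%) and 3990 lower (17.8%), and 3440 of the 3926 DEGs (87.6%) were among them. In 571 DEGs every MCS liver held 3 counts or fewer and in 175 every KO liver did, so part of these counts concerns genes that were at or near 0 in a whole group. When libraries were scaled by their totals alone, the median of all genes moved to 0.251 and 3526 DEGs were higher and 790 lower, which raised the higher share to 81.7%. By the adjusted p alone, 5594 genes were then higher and 1697 lower, or 76.7% higher, so the balance between directions depended on the scaling. Without KO 1, 3071 genes were higher and 1656 lower.

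**Figure D2:**
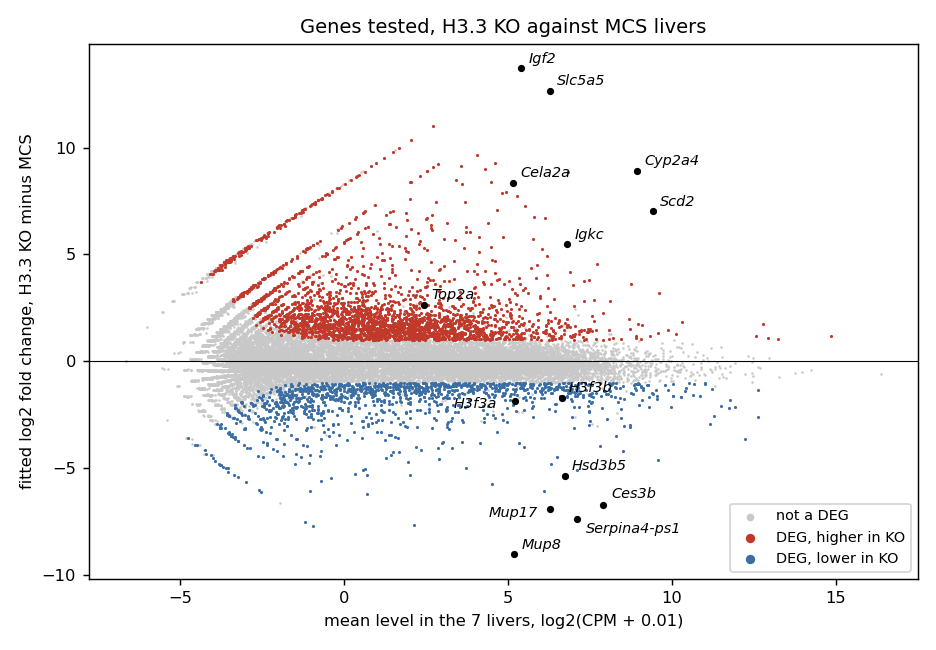
Fitted log2 fold change of KO minus MCS (y axis) against the mean level in the 7 livers (x axis, log2 of CPM + 0.01) for the 22449 genes tested, with DEGs in red (2682 higher) and blue (1244 lower). Changes over 5 on the log2 scale appear mainly above 0, and the lines of points at the left are genes with few or no counts in a group.

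The direction of change went with the level of a gene in WT Cre livers. Genes were divided into 10 equal classes by their level per kilobase of exon in the 3 WT Cre livers, which do not enter the contrast. In class 1, the lowest, 19.1% of genes were DEGs higher in KO livers and 1.25% were lower. The share of higher DEGs stayed between 18.4% and 18.9% in classes 2 to 4 and then declined to 3.35% in class 10, the highest, where the share of lower DEGs was 10.3%. The median log2 fold change was 1.10 in class 1 and -0.26 in class 10. These are descriptions over genes, which are not replicates, and genes of class 1 had at most 0.0347 CPM per kilobase. Genes that low in WT Cre livers could reach the filter of 10 counts through counts in KO or MCS livers. There were 4 KO livers against 3 MCS livers. The filter thus bears on the shares and the median of class 1. It may also bear on the next low classes, since genes of class 2 had at most 0.0932 CPM per kilobase. The part of the filter was not tested.

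**Figure D3:**
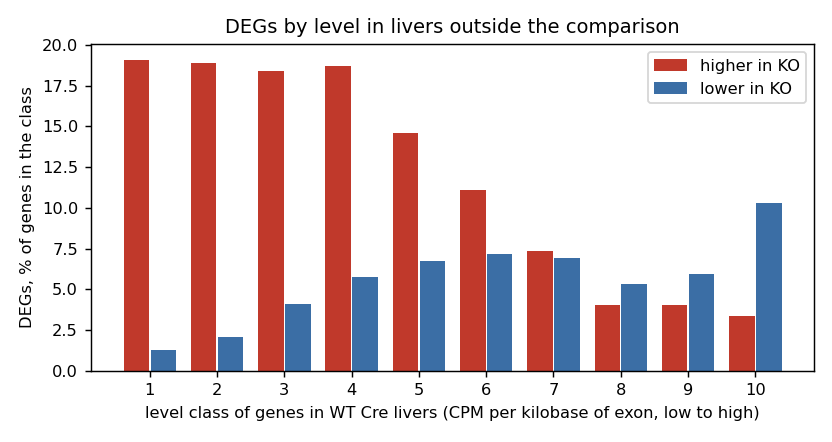
Share of genes in each of 10 level classes (x axis, low to high level in WT Cre livers) that were DEGs higher (red) or lower (blue) in KO than in MCS livers (y axis, percent). Higher DEGs make up 19.1% of class 1 and 3.35% of class 10, and lower DEGs 1.25% and 10.3%. The filter on counts over all libraries bears on class 1 and may bear on the next low classes.

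Classes of genes differed too. Of 15305 protein-coding genes tested, 14.6% were higher and 4.84% lower. Long intergenic RNAs were nearly balanced, at 13.7% and 12.3% of 918. Of 144 immunoglobulin variable genes, 65 (45.1%) were higher and 1 was lower, and reads may be split between members of that family. Genes near 0 in MCS livers could reach the filter on counts through KO livers. The filter thus may bear on this share, and its part was not tested. Among 13195 genes with a RefSeq promoter (GRCm38.p6), the median ratio of observed to expected CpG in the 250 bases before the start was 0.672, against 0.470 in 1861 higher DEGs and 0.465 in 712 lower DEGs, so the promoters of both directions held fewer CpG than those of all genes.

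The genes that rose most were nearly silent in MCS livers. Igf2, the fetal insulin-like growth factor that the adult mouse liver turns off after birth, had 0 counts in all 3 MCS livers and 2.22, 73.5, 115 and 105 CPM in KO livers. Its KO mean was at least 523-fold above a floor of 3 counts per MCS library, and KO 1 was far below KO 2 to KO 4. Slc5a5, the sodium iodide symporter of the thyroid, was at 0.456, 141, 130.5 and 269 CPM in KO livers and had 1 count in the MCS livers together. KO 1 lay near the MCS livers for this gene, and KO 2 to KO 4 carried the difference. Cela2a, a pancreatic elastase, showed the same split, at 0.163, 0.313 and 0.0559 CPM in MCS livers and 0.326, 83.5, 59.4 and 105 CPM in KO livers (8.36 ± 1.80, adjusted p = 0.0101), and 8.99 without MCS 2. S100g, a calcium-binding protein of gut and kidney, was at 0.521, 23.4, 63.1 and 50.6 CPM in KO livers, again lowest in KO 1, against 4 counts in the MCS livers together, a ratio of 612 with a 95% counting interval from 239 to 2249.

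Other genes of this set rose in KO 1 as well. Cfap53, a protein of cilia and centrioles, had 3 counts in the MCS livers together and was at 20.8, 12.1, 11.9 and 29 CPM in KO livers, so KO 1 was not the lowest. Radil, an effector of the GTPase Rap1, had 1 MCS count and was at 4.24, 15.4, 18 and 2.45 CPM in KO livers. Cyp2a4, a steroid hydroxylase that female mouse livers express, was at 1.71, 1.96 and 1.56 CPM in MCS livers and 291, 837, 1362 and 919 CPM in KO livers (8.92 ± 1.03, adjusted p = 0.000487). The WT Cre livers lay between, at 21.6, 24.2 and 114 CPM of Cyp2a4, and KO minus WT Cre was 4.00 (adjusted p = 0.00716). Cyp3a41a, another female-biased P450, had 4 counts in the MCS livers together and was at 6.39, 38.5, 76.5 and 46.4 CPM in KO livers, a ratio of 734 with a 95% counting interval from 287 to 2697. All 8 of these genes had 4 KO livers above 3 MCS livers, which was a condition for naming them. KO 1 was the lowest KO liver in 6 of them. Igf2, Radil, Cela2a, Cfap53, S100g and Cyp2a4 overlap another annotated gene on the same or the other strand. Such overlaps touched 50 of 109 genes named in the text and checked for overlaps, these 6 included. Since the strand setting of the counting was not stated, reads may be shared.

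Among protein-coding genes the steepest losses were mostly major urinary proteins (Mup), pheromone carriers that male livers secrete in bulk, and other male-biased products. Mup17 was at 189, 82.9 and 266 CPM in MCS livers and 1.04, 2.06, 1.69 and 0.956 CPM in KO livers (-6.94 ± 0.50, adjusted p = 3.23e-05). Mup8 was at 2.73, 96.1 and 155 CPM and 0.0652, 0.237, 0.211 and 0.0765 CPM (-9.05 ± 1.48, adjusted p = 0.00292), and -8.27 without MCS 3. The groups did not overlap in either gene, which was a condition for naming them, although MCS 1 held far less Mup8 than MCS 2 and MCS 3. Mup15 fell by 6.06 (adjusted p = 0.000521). Mup14 fell by 5.08 (adjusted p = 0.00428, and 0.0592 with a replicate block), and Mup11 fell by 4.80 (adjusted p = 0.00421). WT Cre livers were also low, at 0.875, 0.824 and 0.238 CPM of Mup8. KO minus WT Cre did not pass for Mup8, Mup14 or Mup11 (adjusted p = 0.52, 0.13 and 0.20). It passed for Mup17 (-3.38, adjusted p = 0.00103) and Mup15 (-2.73, adjusted p = 0.0164). Mup genes are near-identical copies, so their reads may be shared and single members are uncertain.

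Ces3b, a carboxylesterase of the hepatocyte endoplasmic reticulum, was at 427, 753 and 449.8 CPM in MCS livers and 4.04, 8.62, 5.56 and 1.95 CPM in KO livers (-6.74 ± 0.54, adjusted p = 5.33e-05). Hsd3b5, a male-specific steroid reductase, was at 225, 366 and 128 CPM and 0.195, 13.7, 7.8 and 1.11 CPM (-5.36 ± 1.14, adjusted p = 0.00961), and -6.25 without KO 2. Dct, known for melanin synthesis, was at 9.2, 7.95 and 13.4 CPM in MCS livers, and the 4 KO libraries together held 4 counts, a ratio of 224 with a 95% counting interval from 87.2 to 826. Neither gene had a KO liver within the range of the MCS livers, which was a condition for naming them. In Hsd3b5 the WT Cre livers were as low as the KO livers, at 5.13, 7.89 and 0.953 CPM, and in Dct they lay between, at 2.13, 2.13 and 2.94 CPM.

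**Figure D4:**
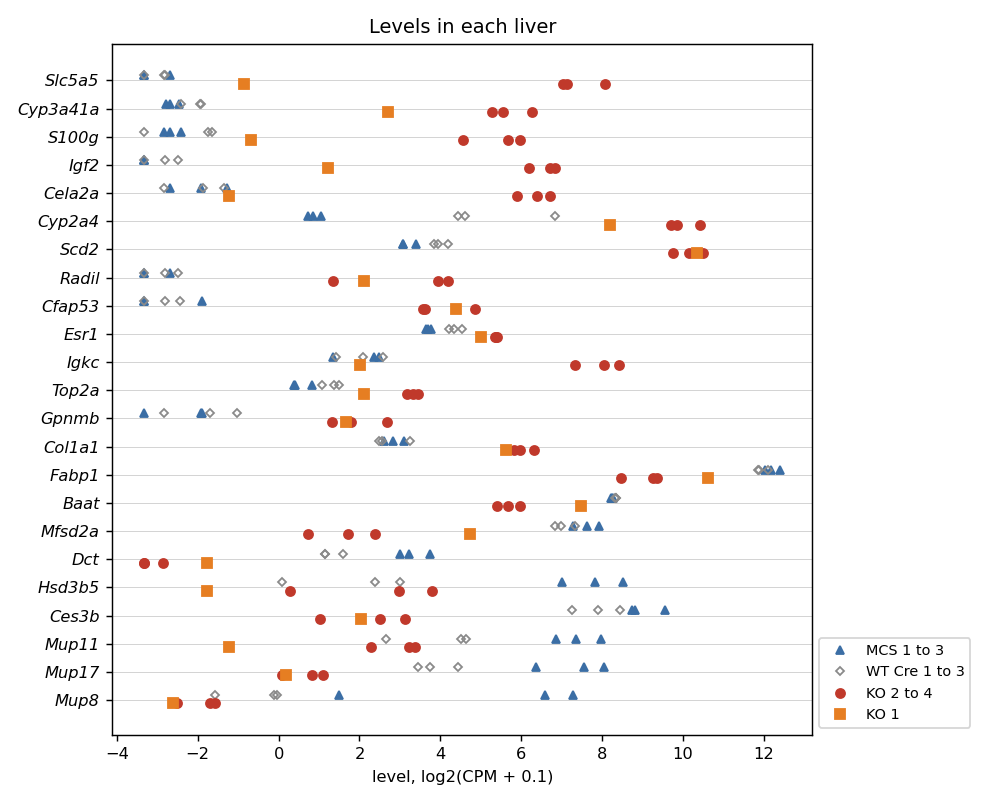
Level of 23 genes (x axis, log2 of CPM + 0.1) in each MCS, WT Cre and KO liver, with KO 1 marked apart from KO 2 to KO 4. KO 1 lies near the MCS livers in Slc5a5, Cela2a and Igkc, with the other KO livers in Scd2 and Ces3b, and WT Cre livers lie between in Mup17.

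Hepatocyte products fell over several functional groups. In bulk liver, fewer hepatocytes and less RNA per hepatocyte cannot be told apart. Of 44 secreted plasma proteins, 24 fell, 3 rose and the median log2 fold change was -0.53, whereas 6 rose and the median was -0.29 with scaling by library totals. Fgb and Fga, chains of fibrinogen, went from 4268, 5369 and 8725 CPM to 1765, 1492, 1144 and 1020.2 CPM and from 4804, 5756 and 10033 CPM to 1991, 1712, 1293 and 1324 CPM, with log2 fold changes of -2.18 ± 0.25, adjusted p = 0.000104, and -2.12 ± 0.24, adjusted p = 8.79e-05. MCS 3 held the most of both, and every KO liver lay below every MCS liver. Alb fell by 0.60 (adjusted p = 0.00504), transthyretin (Ttr) by 0.95 (adjusted p = 0.000513) and Apoa1, the main protein of high-density lipoprotein, by 1.35 (adjusted p = 0.00119). KO minus WT Cre did not pass for Alb (-0.36, adjusted p = 0.067) or Apoa1 (-0.45, adjusted p = 0.175). It passed for Ttr (-0.98, adjusted p = 0.000544), Fgb (-1.08, adjusted p = 0.00715) and Fga (-1.10, adjusted p = 0.00533). The list median was -0.24 for WT Cre minus MCS and -0.31 for KO minus WT Cre.

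Not all abundant plasma proteins fell. Transferrin (Trf), the iron carrier, was at 15565, 16923 and 18307 CPM in MCS livers and 32733, 39684, 42568 and 40125 CPM in KO livers (1.20 ± 0.14, adjusted p = 7.91e-05). Hemopexin (Hpx), which binds free heme, was at 2938, 3446 and 3954 CPM and 6815, 8134, 7995 and 8642 CPM (1.20 ± 0.16, adjusted p = 0.000191). Both were higher in all 4 KO livers than in any MCS liver, so loss of secreted proteins was not uniform.

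Of 24 transcription factors that specify hepatocytes, 7 fell and 2 rose, with a median of -0.29, and the number that fell was 4 without KO 2, without KO 3, in a fit of the 7 livers alone and with scaling by library totals, where the median was -0.034. Hnf4a, which binds the promoters of many hepatocyte genes, was at 656, 795 and 1074 CPM in MCS livers and 374, 448, 400.4 and 772 CPM in KO livers (-0.76 ± 0.24, adjusted p = 0.0336). The groups overlapped in Hnf4a because KO 4 lay above MCS 1, and the call was lost when MCS 2, MCS 3, KO 1, KO 2 or KO 3 was left out (adjusted p from 0.0691 without MCS 2 to 0.139 without MCS 3). It was also lost without WT Cre 3 (adjusted p = 0.0529), with the 7 livers alone (0.077), against all 6 controls (0.0763), without the low-count filter (0.12) and with scaling by library totals (0.161). The xenobiotic receptor Nr1i3 (CAR) fell by 1.39 (adjusted p = 0.00787). The estrogen receptor Esr1 was at 13.5, 12.3 and 12.9 CPM and 31.9, 42.1, 41 and 41.3 CPM (1.60 ± 0.13, adjusted p = 6.48e-06), higher in every KO liver.

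Transporters of bile acids and lipids fell as well. Of 21 hepatocyte transporters, 12 fell and 3 rose, and the median was -0.88. Mfsd2a, which takes up lysophosphatidylcholine, was at 241, 155 and 199 CPM in MCS livers and 26.6, 3.16, 1.56 and 5.12 CPM in KO livers (-4.49 ± 0.88, adjusted p = 0.00668), and -5.90 without KO 1. Abcc3, a basolateral exporter of conjugated bile acids, was at 288, 238 and 261 CPM and 38, 25.6, 26.2 and 29.1 CPM (-3.14 ± 0.16, adjusted p = 2.22e-07). Neither gene overlapped between groups, and KO 1 kept more Mfsd2a than the other KO livers. Abcc4 and Abcb1a, exporters of conjugates and drugs, rose by 3.72 (adjusted p = 4.98e-06) and 2.37 (adjusted p = 0.00111). For Abcc4, WT Cre minus MCS was 2.53 (adjusted p = 0.00117) and KO minus WT Cre was 1.18 (adjusted p = 0.00302).

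Of 16 genes of bile acid synthesis, 7 fell and none rose, with a median of -0.49. Slc27a5 and Baat, which join bile acids to coenzyme A and then to amino acids, were the lowest. Slc27a5 went from 1026, 1111 and 1258 CPM to 372, 278, 212 and 169 CPM (-2.14 ± 0.22, adjusted p = 4.16e-05), and Baat from 299, 310.1 and 302 CPM to 177, 62.7, 50.9 and 42.5 CPM (-1.87 ± 0.44, adjusted p = 0.0116). Without KO 1 the fold change of Baat was -2.54, and 10 members fell and 2 rose.

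Zonated genes fell at both ends of the liver lobule, along which hepatocytes divide their tasks from portal to central vein. Of 23 urea cycle and periportal genes, 16 fell and 1 rose (median -0.77), and of 22 pericentral genes, 12 fell and 3 rose (median -0.72). In the same order, the medians were -0.26 and -0.20 for WT Cre minus MCS and -0.36 and -0.38 for KO minus WT Cre. Arg1, the last enzyme of the urea cycle, was at 1836, 1719 and 1789 CPM in MCS livers and 509, 405, 351 and 348 CPM in KO livers (-2.14 ± 0.15, adjusted p = 2.17e-06). Sds, which degrades serine, fell by 2.39 (adjusted p = 7.21e-07). For Sds, WT Cre minus MCS was -1.09 (adjusted p = 0.0044) and KO minus WT Cre was -1.30 (adjusted p = 6.32e-05). On the pericentral side, Cyp2e1 was at 5979, 5748 and 6053 CPM and 1834, 1945, 1648 and 1338 CPM (-1.81 ± 0.14, adjusted p = 5.7e-06), and glutamine synthetase Glul fell by 1.52 (adjusted p = 9.83e-05). All 4 KO livers were below all 3 MCS livers in each of these genes.

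Exceptions stood in both zones. Slc1a4, a neutral amino acid transporter, was at 3.18, 3.13 and 2.46 CPM in MCS livers and 42.6, 39.4, 45.6 and 39.2 CPM in KO livers (3.83 ± 0.17, adjusted p = 5.85e-08), and Rhbg, an ammonium transporter, rose by 1.16 (adjusted p = 0.00158). The WT Cre livers lay between in Slc1a4, at 10, 14.7 and 12 CPM. Its log2 fold change was 2.06 for WT Cre minus MCS (adjusted p = 0.000141) and 1.76 for KO minus WT Cre (adjusted p = 1.09e-05). Without KO 4, and with scaling by library totals, 5 pericentral genes rose. The periportal member that rose was the lysosomal protease Ctsc, by 0.63 (adjusted p = 0.0052).

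Drug-metabolizing genes went in both directions, and 6 of 31 rose while 11 fell, with a median of -0.11 that turned positive with scaling by library totals (0.132), without MCS 3 (0.027) and without KO 4 (0.035). With scaling by library totals 10 rose. Cyp2b10, a P450 induced through CAR, was at 7.94, 8.53 and 36.8 CPM in MCS livers and 206, 172, 167 and 285 CPM in KO livers (3.56 ± 0.65, adjusted p = 0.00406), and 4.66 without MCS 3. Gstp2, a glutathione transferase, was at 3.46, 1.74 and 3.63 CPM and 31.7, 102, 171 and 141 CPM (5.25 ± 0.63, adjusted p = 0.000536). Ugt2b1, which conjugates glucuronic acid, was at 526, 594 and 826 CPM and 69.8, 55.7, 46.1 and 56.1 CPM (-3.51 ± 0.18, adjusted p = 1.86e-07). The groups did not overlap in any of the 3, and Gstp2 has a close paralog with which it may share reads.

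Male-biased genes fell and female-biased genes rose in these livers, all of which came from males. In mice, pulsed growth hormone secretion in males acts through the transcription factor STAT5b to maintain male-biased liver genes and to hold down female-biased ones. Of 35 male-biased genes, 23 fell and 3 rose in KO livers (median -2.09). Of 33 female-biased genes, 18 rose and 2 fell (median 2.33, or 2.15 with 5 members at or near 0 counts set to their bound). Summed over each list, male-biased genes were at 20234 to 28438 CPM in MCS livers and 8867 to 11971 CPM in KO livers, and female-biased genes at 336 to 463 CPM and 2168 to 2867 CPM. Serpina4-ps1, a male-biased pseudogene, was at 102, 675 and 174 CPM in MCS livers and 3.19, 2.57, 0.843 and 1.19 CPM in KO livers (-7.39 ± 1.01, adjusted p = 0.00125), and -6.19 without MCS 2. Cyp2u1, listed as male-biased, went the other way, at 60.9, 51.6 and 20.8 CPM and 174, 187, 171 and 76.5 CPM (1.77 ± 0.41, adjusted p = 0.0098). Gna14, listed as female-biased, fell by 1.88 (adjusted p = 5.45e-05). For Gna14, WT Cre minus MCS was -1.19 (adjusted p = 0.0204) and KO minus WT Cre was -0.69 (adjusted p = 0.027). Without KO 1, 5 male-biased genes rose and 4 female-biased genes fell. Against all 6 controls, 15 male-biased genes fell and 5 rose.

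In the male-biased list the WT Cre livers were at 10172 to 13166 CPM in sum, below every MCS liver and overlapping the KO livers. The median of its members was -1.31 for WT Cre minus MCS and -0.43 for KO minus WT Cre. Between WT Cre and MCS livers, 10 of the 35 passed the test, all lower, where 0.927% of all genes passed and 0.486% were lower. In the female-biased list the median was 0.54 for WT Cre minus MCS and 1.85 for KO minus WT Cre. These medians share libraries and are given side by side only.

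Of 16 members of the growth hormone axis itself, 3 rose and 2 fell (median -0.15, and 0.110 with scaling by library totals). Igf1, the main hormone that growth hormone induces in liver, was at 736, 679 and 588 CPM in MCS livers and 277, 320.1, 341 and 338 CPM in KO livers (-1.07 ± 0.13, adjusted p = 9.94e-05). The receptor Ghr was at 539, 569 and 535 CPM and 404, 297, 254 and 184 CPM (-0.94 ± 0.20, adjusted p = 0.00356). Both were lower in every KO liver, and they were the members that fell. The count that rose was 0 without MCS 1, 1 without MCS 2, KO 2 or KO 3, and 5 without KO 1, and the count that fell was 4 without MCS 1.

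Lipid synthesis had few members past the test, and a desaturase rose far. Of 30 genes of lipogenesis and desaturation, 2 rose and 6 fell (median -0.27), and without KO 1, 14 fell. The median was -0.0067 without MCS 1, and with scaling by library totals it was -0.036 and 5 rose. Scd2, the stearoyl-CoA desaturase of brain and of the fetal liver, was at 8.39, 10.4 and 8.27 CPM in MCS livers and 1297, 1133, 1437 and 867 CPM in KO livers (7.03 ± 0.23, adjusted p = 3.95e-09). KO 1 was level with the other KO livers in this gene. Acaca, the rate-limiting enzyme of fatty acid synthesis, rose by 0.77 (adjusted p = 0.00421). Lpin1, a phosphatidate phosphatase, was at 419, 686 and 896 CPM and 69.7, 76, 93.6 and 184 CPM (-2.66 ± 0.39, adjusted p = 0.000915). The WT Cre livers were as low as the KO livers in Lpin1, at 135, 90.7 and 82.2 CPM. Its log2 fold change was 0.044 for KO minus WT Cre (adjusted p = 0.947) and -2.70 for WT Cre minus MCS (adjusted p = 0.0226). Plin4, a lipid droplet protein, fell by 2.78 (adjusted p = 0.0018).

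Of 34 genes of fatty acid oxidation and PPARA targets, 12 fell and 5 rose (median -0.46), and 22 fell without KO 1. Fabp1, the main fatty acid-binding protein of liver, was at 5444, 4610.3 and 4144 CPM in MCS livers and 1566, 659.5, 618 and 356 CPM in KO livers (-2.57 ± 0.41, adjusted p = 0.00148). Fgf21, a fasting hormone, was at 3.3, 5.18 and 1.51 CPM and 1.56, 0.277, 0.379 and 0.153 CPM (-2.67 ± 0.63, adjusted p = 0.0102), and -3.63 without KO 1, whose value overlapped MCS 3. Pdk4, which limits pyruvate oxidation, was at 5.37, 3.84 and 8.61 CPM and 33.6, 25.9, 36.8 and 35.3 CPM (2.48 ± 0.26, adjusted p = 7.78e-05). For Pdk4, WT Cre minus MCS was 1.92 (adjusted p = 0.00661), and KO minus WT Cre did not pass (0.56, adjusted p = 0.102). Cyp4a31, a fatty acid hydroxylase, rose by 2.17 (adjusted p = 0.000611).

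Cholesterol synthesis leaned lower, with 10 of 25 genes lower and 1 higher (median -0.35), or 3 higher and a median of -0.12 with scaling by library totals. Tm7sf2 and Fdps, enzymes of the pathway, fell by 1.78 and 1.51 (adjusted p = 1.44e-05 and 0.00298).

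Fetal liver genes rose, and none fell. Of 22 measured, 12 rose, with a median of 1.22, led by Igf2 and Scd2. Their summed level was 142 to 156 CPM in MCS livers and 1301 to 1758 CPM in KO livers, and Scd2 alone made up most of it. Of 19 biliary genes, 7 rose and none fell (median 0.61, or 0.50 with 4 members at or near 0 counts set to their bound or left out), and 4 rose without MCS 1 or without MCS 2. Against all 6 controls, 5 biliary genes rose and 1 fell (median 0.40). The biliary median was 0.39 for WT Cre minus MCS and 0.24 for KO minus WT Cre. Elf3, an epithelial transcription factor, was at 0.529, 0.491 and 0.447 CPM in MCS livers and 1.63, 2.69, 3.5 and 3.94 CPM in KO livers (2.58 ± 0.32, adjusted p = 0.000135). Cldn7, a tight junction protein, was at 0.692, 0.625 and 0.503 CPM and 0.717, 1.58, 5.01 and 5.7 CPM (2.42 ± 0.65, adjusted p = 0.0171), and it lost its call when any MCS liver was left out (adjusted p = 0.0552, 0.0607 and 0.0577) and without the low-count filter (0.0557). Among the cell type markers of cholangiocytes, Sox9 (1.32 ± 0.29, adjusted p = 0.00508) and Spp1 (0.42 ± 0.15, adjusted p = 0.047) rose. Krt19 (0.20 ± 0.42, adjusted p = 0.757) and Epcam (1.70 ± 0.74, adjusted p = 0.114) did not pass. Epcam was at 12.3 CPM in KO 4 and at 1.34 to 2.54 CPM in KO 1 to KO 3.

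**Figure D5:**
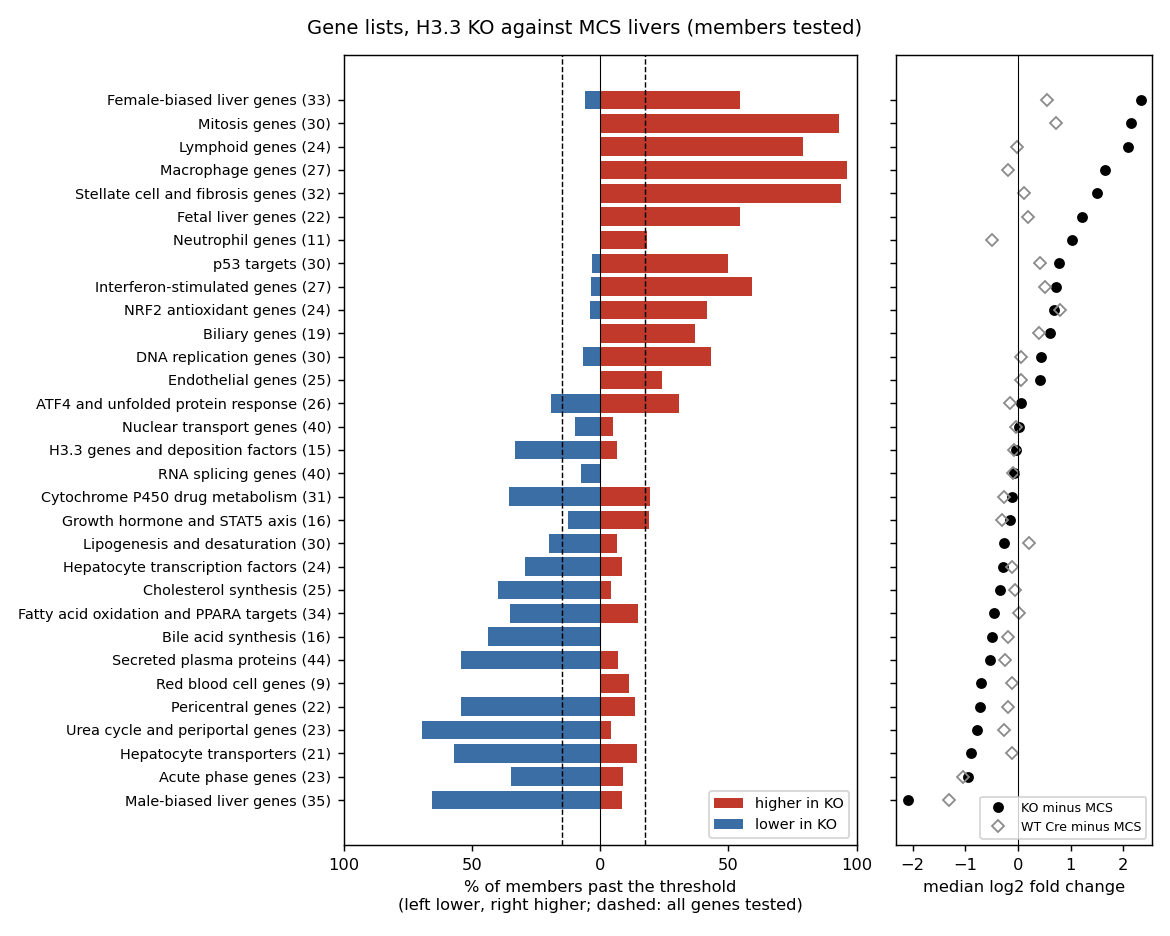
Left, share of the members of each gene list (number tested in brackets) that were higher (red) or lower (blue) in KO than in MCS livers by the adjusted p, with dashed lines at the shares over all genes (17.3% and 14.8%). Right, median log2 fold change of each list for KO minus MCS (black) and WT Cre minus MCS (open), which runs for KO minus MCS from -2.09 in male-biased to 2.33 in female-biased genes.

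Genes of stellate cells, macrophages and lymphocytes were higher nearly throughout their lists. Of 32 stellate cell and fibrosis genes, 30 rose (median 1.49), of 27 macrophage genes 26 rose (median 1.65), and of 24 lymphoid genes 19 rose (median 2.08), and none of the 3 lists had a member that fell. Col1a1, the main fibrillar collagen chain, was at 8.47, 7.05 and 5.98 CPM in MCS livers and 48.8, 62.4, 56.1 and 80.2 CPM in KO livers (3.11 ± 0.24, adjusted p = 7.18e-06). Its partner Col1a2 rose by 2.46 (adjusted p = 4.61e-06), whereas Dcn, a proteoglycan of resting stellate cells, rose by 0.71 (adjusted p = 0.00241). Timp1, an inhibitor of matrix proteases, had 2 counts in the MCS livers together and was at 2.09, 3.56, 2.19 and 3.48 CPM in KO livers, and Mmp12, a macrophage elastase, was at 0.366, 0.223 and 0.279 CPM and 9.51, 26.3, 23.1 and 33 CPM (6.28 ± 0.67, adjusted p = 0.000177). All 4 KO livers were above the MCS livers in each of these genes.

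Among macrophage genes, the Kupffer cell gene Cd5l was at 47.5, 44.9 and 86.6 CPM in MCS livers and 121, 189, 193 and 244 CPM in KO livers (1.65 ± 0.27, adjusted p = 0.00131), and the complement gene C1qa rose by 1.33 (adjusted p = 0.000828). Gpnmb, a gene of lipid-laden macrophages, was at 0.163, 0 and 0.168 CPM and 3.06, 3.36, 2.4 and 6.35 CPM (5.07 ± 0.68, adjusted p = 0.000284). Itgax, the integrin CD11c, was at 0.611, 1.16 and 0.671 CPM and 2.87, 12.4, 8.68 and 11.9 CPM (3.46 ± 0.48, adjusted p = 0.000428). MCS 3 held more of the resident markers than MCS 1 and MCS 2 and still lay below every KO liver. The pan-leukocyte gene Ptprc was at 5.29, 5.09 and 10.7 CPM and 15.1, 35.3, 28.8 and 37.7 CPM (2.07 ± 0.37, adjusted p = 0.00246), with KO 1 the lowest of the KO livers.

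Lymphoid genes divided the KO livers. Igkc, the kappa light chain constant gene, was at 5.05, 5.45 and 2.46 CPM in MCS livers and 3.91, 344, 265 and 159.8 CPM in KO livers (5.47 ± 1.32, adjusted p = 0.0163). Jchain, which links antibody multimers in plasma cells, was at 1.71, 1.83 and 1.29 CPM and 0.717, 66.3, 56.6 and 41.6 CPM (4.67 ± 1.18, adjusted p = 0.0192). KO 1 overlapped the MCS livers in both genes, so the difference was carried by KO 2 to KO 4. The call of Igkc was lost without MCS 1 or without MCS 2 (adjusted p = 0.0542 and 0.0523), and that of Jchain without any 1 of the MCS livers (adjusted p = 0.0644, 0.0623 and 0.0554). Summed over the lymphoid list, the MCS livers were at 51.3 to 52.8 CPM, KO 1 at 167 CPM and KO 2 to KO 4 between 341 and 569 CPM. The T cell gene Cd3g rose by 1.79 (adjusted p = 0.0085), and 12 list members rose without MCS 1.

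Endothelial and neutrophil genes had fewer members past the test. Of 25 endothelial genes, 6 rose and none fell (median 0.42), and the number was 3 without MCS 1 or MCS 2 and 13 without KO 1. With scaling by library totals 15 rose, and the median was 0.19 without KO 4. Cdh5 and Plvap, genes of endothelial junctions and fenestrae, rose by 0.90 (adjusted p = 0.00284) and 0.79 (adjusted p = 0.000924), while the sinusoidal scavenger receptor Stab2 did not pass (0.34 ± 0.18, adjusted p = 0.163) but did without KO 1 (0.48, adjusted p = 0.0111) and with scaling by library totals (0.60, adjusted p = 0.0286). Of 11 neutrophil genes, 2 passed and rose, and 6 did without MCS 3 and 5 against all 6 controls. They were the cytokine Il1b, at 0.488, 0.893 and 2.01 CPM and 2.48, 8.62, 7 and 4.36 CPM (2.36 ± 0.51, adjusted p = 0.00574), or 3.04 without MCS 3. The receptor gene Csf3r was the other, whose groups overlapped (1.50 ± 0.47, adjusted p = 0.0329) and whose call was lost without any 1 of MCS 1, MCS 2, KO 2, KO 3 or KO 4 (adjusted p from 0.0561 without KO 4 to 0.117 without MCS 1), with the 7 livers alone (0.0683) and without the low-count filter (0.091). Of 9 red blood cell genes, 1 passed and rose, with a median of -0.70 that ran from -1.30 without KO 2 to -0.22 without MCS 1, and none rose without any 1 of MCS 1 to MCS 3 or KO 1 to KO 3.

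Genes of mitosis rose in all 4 KO livers, from a low level. Of 30 mitosis genes, 28 rose and none fell (median 2.14), and their summed level was 28.5 to 31.2 CPM in MCS livers, 67.9 CPM in KO 1 and 98.5 to 119 CPM in KO 2 to KO 4. The WT Cre livers stood at 36.7 to 54.2 CPM. Top2a, the topoisomerase of dividing cells, was at 1.22, 1.21 and 1.68 CPM in MCS livers and 4.24, 8.98, 9.9 and 10.8 CPM in KO livers (2.65 ± 0.31, adjusted p = 9.36e-05). Ube2c, which feeds the anaphase-promoting complex, was at 0.488, 0.714 and 0.894 CPM and 2.8, 4.07, 5.56 and 4.55 CPM (2.62 ± 0.29, adjusted p = 7.01e-05). No KO liver overlapped the MCS livers in either gene, and the assay does not say in which cells the transcripts arose.

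Many promoters of mitosis genes share a CCAAT box, bound by the factor NF-Y, and a cell cycle homology region with the core TTTGAA near the start. Of 25 mitosis promoters found in RefSeq, 21 (84%) held CCAAT on either strand in the 250 bases before the start, against 35.7% of 13195 promoters, and 10 (40%) held TTTGAA on either strand, against 11.8%. CCAAT was about as frequent in other lists, at 94.1% of 17 cholesterol synthesis, 80% of 15 H3.3 and deposition factor and 72% of 25 ATF4 promoters, and TTTGAA stood at 34.6% of 26 drug metabolism promoters. With the 50 bases after the start included, TTTGAA was in 18 (72%), against 13.2% of all promoters. The 250 bases before the start are printed for Top2a and Ube2c, which had the largest fold changes among members at 1 CPM or more, and for Mki67, the standard proliferation marker, which was chosen after its values were seen and went from 1.42, 2.1 and 1.79 CPM to 5.8, 13.4, 11.9 and 11.6 CPM (2.60 ± 0.32, adjusted p = 0.000129). Capitals mark TTTGAA and CCAAT on either strand (TTCAAA and ATTGG on the other), and the sequences are from GRCm38.p6, on the minus strand at chr11:99024190-99024439 for Top2a, on the plus strand at chr2:164769679-164769928 for Ube2c and on the minus strand at chr7:135716380-135716629 for Mki67.
Top2a: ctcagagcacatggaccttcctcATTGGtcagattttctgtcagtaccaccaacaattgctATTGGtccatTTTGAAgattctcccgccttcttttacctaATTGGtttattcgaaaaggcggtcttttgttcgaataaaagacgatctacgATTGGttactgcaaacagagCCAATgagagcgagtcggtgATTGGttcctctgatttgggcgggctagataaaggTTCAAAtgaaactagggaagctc
Ube2c: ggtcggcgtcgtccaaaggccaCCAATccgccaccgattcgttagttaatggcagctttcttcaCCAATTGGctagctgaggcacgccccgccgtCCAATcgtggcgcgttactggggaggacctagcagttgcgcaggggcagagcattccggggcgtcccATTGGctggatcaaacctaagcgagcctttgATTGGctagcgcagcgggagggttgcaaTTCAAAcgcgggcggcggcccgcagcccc
Mki67: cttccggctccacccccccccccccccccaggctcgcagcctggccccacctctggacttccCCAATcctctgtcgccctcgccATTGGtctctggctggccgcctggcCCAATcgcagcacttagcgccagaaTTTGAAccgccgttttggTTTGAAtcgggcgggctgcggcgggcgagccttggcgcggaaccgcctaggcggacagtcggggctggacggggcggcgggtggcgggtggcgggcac
The match nearest the start lay 23 bases before it for TTTGAA in Top2a, 29 in Ube2c and 98 in Mki67. Such matches are letters in a window and were not tested as sites.

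Of 30 DNA replication genes, 13 rose and 2 fell (median 0.44). Cdc6, which loads the replicative helicase, was at 0.163, 0.0446 and 0.279 CPM in MCS livers and 0.456, 1.11, 1.22 and 1.45 CPM in KO livers (2.75 ± 0.52, adjusted p = 0.00184), and E2f2, a cell cycle transcription factor, rose by 2.64 (adjusted p = 0.00015). The members that fell were Mcm10 and Gins1, both of the replication fork. Mcm10 was at 103, 203 and 81 CPM and 70.6, 48.5, 35.7 and 29.1 CPM (-1.49 ± 0.36, adjusted p = 0.012), and Gins1 fell by 1.33 (adjusted p = 0.00102).

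Targets of p53, which answers DNA damage and other stress, rose in part. Of 30, 15 rose and 1 fell (median 0.78, and 0.44 against all 6 controls). Eda2r, a death receptor, was at 0.936, 1.16 and 3.63 CPM in MCS livers and 21.2, 11.4, 10.2 and 14.6 CPM in KO livers (2.94 ± 0.46, adjusted p = 0.0012), or 3.76 without MCS 3, and KO 1 was the highest. Pmaip1, the proapoptotic protein NOXA, rose by 2.51 (adjusted p = 0.0004). Ei24 was the member that fell, by 0.72 (adjusted p = 0.00692), and 4 fell without KO 1. The WT Cre livers were at 6, 6.85 and 9.13 CPM of Eda2r, between the groups, and 5 list members passed the test in WT Cre minus MCS, all higher, as were 0.441% of all genes.

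Stress pathways split by member. Of 26 genes of ATF4 and the unfolded protein response, 8 rose and 5 fell (median 0.067, and 0.33 with scaling by library totals), and 5 rose without MCS 1 or MCS 2. Atf3, an early stress factor, was at 0.611, 1.03 and 1.29 CPM in MCS livers and 4.63, 9.73, 9.57 and 7.65 CPM in KO livers (3.04 ± 0.32, adjusted p = 4.56e-05). Chac1, which degrades glutathione, was at 5.62, 10.8 and 9.22 CPM and 0.326, 0.237, 0.337 and 0.382 CPM (-4.71 ± 0.32, adjusted p = 2.25e-06), and Herpud1, of endoplasmic reticulum quality control, fell by 1.47 (adjusted p = 8.4e-06). Of 24 NRF2 antioxidant genes, 10 rose and 1 fell (median 0.68), and 4 fell without KO 1, where the median was 0.42. Against all 6 controls the NRF2 median was 0.15. Gsta1, a glutathione transferase, was at 0.936, 0.804 and 1.06 CPM and 56, 24.7, 30.8 and 40.7 CPM (5.35 ± 0.57, adjusted p = 0.000213), with WT Cre livers at 5.75, 5.47 and 17.2 CPM. The NRF2 median was 0.80 for WT Cre minus MCS, with 6 members higher past the test, and -0.072 for KO minus WT Cre.

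Acute phase genes turned on a control liver. Of 23, 8 fell and 2 rose (median -0.94), but their summed level was 29228 CPM in MCS 3 against 12643 and 14029.7 CPM in MCS 1 and MCS 2 and 8629.5 to 11657 CPM in KO livers. Without MCS 3, the median was 0.13, and 6 members rose and 8 fell. With all MCS livers, the acute phase median was -1.04 for WT Cre minus MCS, where 0 members passed the test, and 0.23 for KO minus WT Cre. Serpina3n, a protease inhibitor, was at 400.4, 403 and 1749 CPM in MCS livers and 211, 90.6, 69.1 and 37.2 CPM in KO livers (-3.06 ± 0.72, adjusted p = 0.0131), or -1.98 without MCS 3 and -3.70 without KO 1. Orm3, a plasma glycoprotein, fell by 4.40 (adjusted p = 0.00233), or by 3.08 without MCS 3. Saa3, a serum amyloid that macrophages also make, went up, from 3.3, 9.11 and 7.1 CPM to 24.4, 169.5, 109.9 and 84.3 CPM (3.91 ± 0.71, adjusted p = 0.00434).

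Of 27 interferon-stimulated genes, 16 rose and 1 fell (median 0.72, and 0.42 against all 6 controls), and 10 rose without MCS 1, KO 2 or KO 3. The interferon median was 0.51 for WT Cre minus MCS, where 0 members passed the test, and 0.18 for KO minus WT Cre. Zbp1, a sensor of Z-form nucleic acids that can trigger necroptosis, was at 5.66, 7.86 and 6.04 CPM in MCS livers and 52.4, 64.1, 62.2 and 60.6 CPM in KO livers (3.20 ± 0.29, adjusted p = 3.9e-05), without overlap between groups. Cxcl10, a chemokine for T cells, was at 2.73, 4.55 and 6.09 CPM and 11.6, 52.9, 48 and 27.4 CPM (2.99 ± 0.55, adjusted p = 0.00405), with KO 1 the lowest KO liver. The WT Cre livers were at 7.96, 19.6 and 10.3 CPM of Zbp1, below every KO liver.

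The medians of RNA splicing and nuclear transport genes lay within 0.1 of that of all genes, while their counts depended on the scaling. Of 40 splicing genes, none rose and 3 fell (median -0.08, and 0.163 with scaling by library totals), and 0 passed without MCS 1, MCS 2 or KO 3 and 1 without KO 2. With scaling by library totals, 6 splicing genes rose and none fell. Of 40 nuclear transport genes, 2 rose and 4 fell (median 0.02), and 8 rose without KO 1 and 5 without MCS 3, while 2 fell without MCS 2 or KO 3. With scaling by library totals, 14 rose and 1 fell (median 0.28). Kpnb1, importin beta, rose by 0.35 (adjusted p = 0.0111), and Cse1l, which recycles importin alpha, fell by 0.65 (adjusted p = 0.000926). Over all lists, 409 of 789 list genes tested passed, 243 higher and 166 lower.

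KO 1 kept less of the change than the other KO livers, although its H3f3a and H3f3b were as low. Across the 2682 higher DEGs, the median shift from the MCS mean was 1.01 on the log2 scale in KO 1 and 1.67 to 1.79 in KO 2 to KO 4, and across the 1244 lower DEGs it was -1.08 against -1.65 to -1.37. These shifts describe DEGs that the same livers chose. KO 1 lay closer to MCS livers in Mfsd2a and Baat and in the lymphoid list, and within the range of KO 2 to KO 4 in Scd2. In Abcc3 and Arg1 it lay above that range, on the side of the MCS livers, and below every MCS liver. Its library was the shallowest, at 14998426 counts, and the part of depth in these values was not tested.

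The kind of control changed some of these values. WT Cre and MCS livers differed in 208 genes by the adjusted p (0.927%), 144 of them DEGs (0.641%), against 7192 between KO and MCS livers and 6383 (28.4%) between KO and WT Cre livers. This contrast is also the test of whether KO minus MCS and KO minus WT Cre differ. Papss1, which makes the sulfate donor of conjugation, was at 4.52, 5 and 4.81 CPM in MCS, 18.8, 20 and 18 CPM in WT Cre and 8.67, 8.7, 10.3 and 7.92 CPM in KO livers, so it was 0.90 for KO minus MCS (adjusted p = 0.000387) and -1.09 for KO minus WT Cre (adjusted p = 9.15e-05). Cyp4b1 was at 4.8, 3.75 and 4.69 CPM, 16.9, 13 and 15 CPM and 4.24, 3.99, 3.88 and 4.67 CPM in the same order, with no difference past the test between KO and MCS livers (-0.074 ± 0.16, adjusted p = 0.759). Mup13 fell by 4.03 from MCS to KO livers (adjusted p = 3.31e-06) and was -3.14 in WT Cre minus MCS (adjusted p = 0.000785). Tymp fell by 1.46 (adjusted p = 0.000102) and was lower still in WT Cre livers, at -1.73 in WT Cre minus MCS (adjusted p = 0.00117).

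Eno1b, an enolase gene, was at 52.2, 56.9 and 48.8 CPM in MCS, 6.54, 4.9 and 6.51 CPM in WT Cre and 134, 63.3, 69.1 and 59.8 CPM in KO livers. All 4 KO livers lay above the MCS livers (0.63 ± 0.26, adjusted p = 0.0915), which did not pass the test but did with scaling by library totals (adjusted p = 0.0184) and with DESeq2 (adjusted p = 0.0481), and the WT Cre livers lay far below both (-3.13 for WT Cre minus MCS, adjusted p = 0.00117). Against all 6 control livers together, Mup8, Hsd3b5, Lpin1, Pdk4, Eda2r, Mcm10, Hnf4a and Tymp were not past the threshold (adjusted p from 0.051 for Mup8 to 0.213 for Tymp), whereas the number of DEGs was 4199. WT Cre and MCS livers differ in genotype as well as in virus, and these cannot be told apart here.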

How the data were processed

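Poly(A) RNA-seq libraries of 10 male mouse livers were made with a directional kit. The authors deposited raw counts per gene, without normalization, for 55421 identifiers in 10 columns. Their methods name FastQC, Trim Galore, STAR (mm10) and HOMER for counting, whereas the submitters' processing notes name STAR, HTSeq and Cufflinks. An FPKM table was not used here. No column was left unassigned. All livers were separate samples by their labels, and nothing else is stated of their independence.

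Genes with at least 10 counts over the 10 libraries were fitted in 3 groups with edgeR 4.0.16 in R 4.3.3 (TMM scaling, robust quasi-likelihood F test, two-sided, Benjamini-Hochberg), without covariates. DEGs passed an adjusted p of 0.05 with a log2 fold change beyond 1 in either direction. The scripts were tested on simulated data. DESeq2 1.42.0, other scalings and filters, 7 livers alone, all 6 controls, a replicate block and leaving out each liver were alternatives. Coordinates are GENCODE M21 (mm10). Depth was 14998426 to 26096141 counts, and counting intervals (95%, exact) cover counting error only. Where a group held 3 counts or fewer in every library, no fitted fold is given.

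Named genes were H3f3a, H3f3b and Hira, the 8 protein-coding DEGs with the largest and the 8 with the smallest fold change (no overlap, 10 CPM or more in the higher group), the 2 largest and 2 smallest members past the threshold of each of 31 lists (1 CPM or more in a group), the 4 smallest p in each direction between the controls, and cell type markers, and not all are reported here. Members and lists were chosen with earlier results of these data known.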

Additional observations from a re-analysis of the deposited data

Results flagged for a closer look

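Apart from the cholangiocyte markers Sox9, Spp1, Krt19 and Epcam, each gene named in the text was checked for a KO liver that stood apart from the other 3. The measure was the gap to its nearest neighbour over the whole range of the 4 livers (Dixon's test at its 95% critical value). Of 109 genes checked, 6 passed, and about 1 in 20 would by chance in independent groups, so these gaps are given as values only. KO 1 was the library that stood apart in 5 of the 6. It was the lowest KO liver for Esr1, at 31.9 CPM against 41.0 to 42.1 CPM, and remained above the MCS livers (12.3 to 13.5 CPM). It was the highest for Baat at 177 CPM, for Mfsd2a at 26.6 CPM and for Fgf21 at 1.56 CPM, that is, nearer to the MCS livers than KO 2 to KO 4 were. It was also the highest for Eno1b, at 134 CPM, where it lay farther from the MCS livers than KO 2 to KO 4 did. KO 4 was the lowest for Cyp2u1, at 76.5 CPM, and still above the MCS livers. The part of depth in these gaps was not tested.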

How the results depend on the processing

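Across 18 alternatives (other scalings, DESeq2, other filters, the 7 livers alone, all 6 controls, a replicate block and each of 10 livers left out), the number of DEGs between KO and MCS livers ran from 3076 to 4727 (main 3926), genes past the adjusted p alone from 4957 to 8764 (main 7192), and list genes past it from 337 to 480 (main 409). The share of lower DEGs in the highest level class ran from 6.91% with scaling by library totals to 14.9% without KO 1 (main 10.3%), and it was not computed for the other filters, which change the classes. Leaving out a liver of the comparison gave between 3076 DEGs (without MCS 2) and 4727 (without KO 1). Between WT Cre and MCS livers, the 144 DEGs became 314 with DESeq2 and 221 with a replicate block, and from 66 (without WT Cre 3) to 259 (without KO 1) when a liver was left out. The cause of these differences was not tested. Scaling by library totals shifted the median of all genes from 0.0062 to 0.251 and turned 4 list medians positive: 0.218 for H3.3 genes and deposition factors, 0.110 for the growth hormone axis, 0.132 for drug metabolism and 0.163 for splicing, all smaller than that shift. Medians near 0 changed sign under other settings too. That of H3.3 genes was 0.0118 with all 6 controls and also positive with the block, without MCS 2 and without KO 4, that of drug metabolism was 0.0156 with the block and also positive without MCS 3 and without KO 4, and that of nuclear transport was -0.0123 with the block and also negative without MCS 1 and without KO 4. Scaling by library totals also turned Hira (0.0954) and Cyp4b1 (0.176), neither past the threshold. Hira turned without MCS 1 (0.0182, against -0.303 without MCS 3), Papss1 with all 6 controls (-0.416), and the acute phase median without MCS 3 (0.134, against -1.33 without MCS 1). Of 1962 values of named genes under alternatives, 1916 kept direction and side of the threshold, 37 lost the call, 5 gained it and 4 changed sign. DESeq2 gave no adjusted p for 2215 genes.

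Same-numbered KO and MCS livers did not deviate together (r = 0.203, 0.0722 and -0.0472 for numbers 1 to 3), so the numbers were not taken as pairs. With the number as a block, 2393 DEGs were higher and 1039 lower. With 3 or 4 livers a group, depths of 14998426 to 26096141 counts limit genes near 3 counts most, since 571 DEGs had all MCS livers at or under that count.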

Other observations

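Antisense genes and pseudogenes leaned lower, unlike immunoglobulin variable and long intergenic genes. Of 1075 genes annotated as antisense, 5.95% were DEGs higher and 9.67% lower in KO than in MCS livers, and of 2805 processed pseudogenes, 1.32% were higher and 3.99% lower. Of 160 unprocessed pseudogenes, 10.6% were higher and 16.2% lower. Reads of pseudogenes may come from their parent genes, and those of antisense genes from the gene opposite, since the strand setting of the counting was not stated. Mitochondrially encoded genes took 5.50% to 6.00% of counts in MCS livers and 5.12% to 5.34% in KO livers, so the ranges did not overlap.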
